A study of Homo sapiens with 9 samples.

Results

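The inflammatory chemokines described here are 9 genes: CXCL1, CXCL2, CXCL3, CXCL5, CXCL8, CXCL16, CX3CL1, CCL2 and CCL20. Their probes were chosen by annotation alone, as the non-control probes whose array annotation is a RefSeq transcript of 1 of these genes. The rule found 10 probes, of 50599 on the array, for 8 of the 9 genes, out of 21743 genes named on the array. CXCL1 and CXCL2 had 2 probes each, CXCL3, CXCL5, CXCL8, CXCL16, CCL2 and CCL20 had 1 each, and no probe met the rule for CX3CL1, so it has no value.

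RNA was measured on 9 single-colour Agilent arrays, with 3 arrays for OSK-A549-Colony, 3 for OSK-A549-SN and 3 for parental A549. A549 is a line of human lung adenocarcinoma cells, and the parental cells (passages 98 to 99) carried no retrovirus. Both OSK groups, labelled with later passages, came from A549 cells given OCT3/4, SOX2 and KLF4 by retrovirus, after which dome-shaped colonies were picked and passaged. OSK-A549-Colony cells are those that stayed on the dish longer in trypsin. OSK-A549-SN cells, spindle-shaped, grew around the colonies and detached first. According to the study's methods the RNA came from separate transductions. The groups that carry the factors also carry the vector and more passages, and on these arrays the factors, the vector and passage cannot be told apart.

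Chemokines are small secreted proteins that draw leukocytes along a gradient through G protein-coupled receptors. CXCL1, CXCL2, CXCL3, CXCL5 and CXCL8 share a short motif before their first cysteines, act mainly through the receptor CXCR2 (CXCL8 also through CXCR1) and attract neutrophils. CCL2 recruits monocytes through CCR2, CCL20 recruits CCR6-bearing lymphocytes and dendritic cells, and CXCL16 and CX3CL1 are made as membrane-bound proteins whose chemokine part can be shed by ADAM proteases. Airway epithelial cells are a known source of these proteins in inflamed lung, where NF-kB and AP-1 drive many of the genes and the messages are short-lived.

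Promoter sequences from RefSeq were available for 6 of the 9 genes, CXCL1, CXCL2, CXCL3, CXCL5, CXCL8 and CCL20. The 120 bases before the start site are shown for CXCL8 and CXCL2, which were called between the groups, for CXCL1, a near copy of CXCL2 that was not called, and for CCL20, whose values overlapped. They are written 5′ to 3′ on the gene's own strand, and capitals mark matches to the kappaB letters GGNNTTTCC on either strand (build GRCh38.p14).
CXCL8, chr4:73740449-73740568, plus strand: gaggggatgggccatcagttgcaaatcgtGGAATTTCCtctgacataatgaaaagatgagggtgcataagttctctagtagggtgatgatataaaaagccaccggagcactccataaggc
CXCL2, chr4:74099196-74099315, minus strand: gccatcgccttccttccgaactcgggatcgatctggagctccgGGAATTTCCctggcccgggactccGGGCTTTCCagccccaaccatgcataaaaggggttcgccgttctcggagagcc
CXCL1, chr4:73869273-73869392, plus strand: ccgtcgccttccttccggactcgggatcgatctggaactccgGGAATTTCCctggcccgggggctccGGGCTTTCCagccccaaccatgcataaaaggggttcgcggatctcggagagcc
CCL20, chr2:227813722-227813841, plus strand: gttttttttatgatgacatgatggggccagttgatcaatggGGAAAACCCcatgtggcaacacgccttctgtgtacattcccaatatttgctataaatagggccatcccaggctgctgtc

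All 6 promoters held the kappaB letters within the 300 bases searched, against 6.26% of 27305 promoters in the table. CXCL1 and CXCL2 are identical over 93.4% of the aligned 120 bases, CXCL1 and CXCL3 over 90.8%, and CXCL2 and CXCL3 over 88.4%, so these 3 are not separate examples. In CCL20 the match lies on the opposite strand. The AP-1 letters TGANTCA were found in 1 of the 6 (7.76% of all promoters), in CXCL8, upstream of the stretch shown. The C/EBP letters TTGCNNAA also occurred in 1 of the 6, CXCL2 (10.6% of all), and TATAAA in CXCL8 and CCL20 (12.0% of all). Both strands were searched for each motif, and no matches of different motifs overlapped. A match describes the sequence and does not show that a factor binds there.

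Values are background-subtracted spot intensities, or the same on the log2 scale after the 75th percentile of each array was subtracted, so that 0 is that percentile. The 75th percentile lay between 218 and 271 across the arrays, 25808 to 29315 probes were detected per array, and no probe was saturated. Replicate arrays correlated at r of 0.983 to 0.997 across 23758 probes. Of the arrays, 8 were on 1 slide and OSK-A549-SN replicate 3 was alone on the other. The 10 chemokine probes were well above background on 9 of 9 arrays. A probe was called where its limma p, adjusted by Benjamini-Hochberg over all probes tested, was under 0.05 and the fold change over 2. The arrays hold RNA from whole cultures, in which fewer cells of a type and less RNA per cell cannot be told apart.

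Against parental A549, 3 of the 8 measured chemokine genes rose in OSK-A549-Colony: CCL2 5.47-fold, CXCL8 4.74-fold and CXCL2 2.37-fold. These 3 genes were 4 of the 10 probes, in a comparison in which 1.71% of 30864 probes were called higher. The CXCL1, CXCL3 and CXCL5 probes had fold changes of 1.74 to 1.86 with no overlap between the groups and did not pass. No chemokine probe was called lower, where 1.99% of all probes were, and CXCL16 was the 1 gene with lower values on every OSK-A549-Colony array. None of the 8 genes was called in OSK-A549-SN, either against OSK-A549-Colony or against parental A549.

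CCL2, the monocyte attractant, was read by probe A_23_P89431, which is spotted 10 times on each array. Its intensity was 1715, 2276 and 1694 in parental A549, 5738, 3891 and 3782 in OSK-A549-SN, and 10852, 10199.6 and 9897 in OSK-A549-Colony, each in replicate order. The OSK-A549-Colony arrays were the 3 highest, the OSK-A549-SN arrays came next and the parental arrays were lowest, so no groups overlapped. The log2 values averaged 2.96 ± 0.21 in parental A549, 4.20 ± 0.42 in OSK-A549-SN and 5.41 ± 0.05 in OSK-A549-Colony (SD, n = 3). The log2 fold change between OSK-A549-Colony and parental A549 was 2.45 (SE 0.14, limma adjusted p = 0.0126), and by p it ranked 6 among all probes tested.

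CXCL8, the neutrophil attractant also called interleukin-8, was dimmer. Its probe A_32_P87013 read 22.2, 53.7 and 24.9 in parental A549, 69.5, 35.2 and 58.5 in OSK-A549-SN, and 196, 126 and 129.6 in OSK-A549-Colony. The OSK-A549-Colony arrays lay above the other 6, whereas OSK-A549-SN and parental A549 overlapped through parental replicate 2 and OSK-A549-SN replicate 2. The mean log2 values were -2.96 ± 0.66, -2.19 ± 0.45 and -0.72 ± 0.31 in that order (SD, n = 3). OSK-A549-Colony exceeded parental A549 by 2.25 on the log2 scale (SE 0.36, limma adjusted p = 0.0308). Under normexp correction with an offset of 50, the log2 fold change was 1.23 (adjusted p = 0.00793), and it was 0.90 against OSK-A549-SN, in place of 1.48. CXCL8 lost its call against parental A549 when all probes were tested with no detection filter (adjusted p = 0.0511) and when limma's moderation was left out (adjusted p = 0.0707), with the fold change as before.

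CXCL2, another CXCR2 ligand, had 2 probes. A_23_P315364 read 664, 835 and 660.2 in parental A549, 1219, 905 and 955 in OSK-A549-SN, and 2011, 1559.6 and 1569 in OSK-A549-Colony, with no overlap between any groups. A_24_P257416 read 410.0, 521 and 426 in parental A549, 683, 525 and 427 in OSK-A549-SN, and 1146, 859.7 and 756 in OSK-A549-Colony. On this probe OSK-A549-Colony stood above both other groups, and OSK-A549-SN and parental A549 overlapped. The log2 fold change against parental A549 was 1.24 (SE 0.14, limma adjusted p = 0.0207) for the former probe and 1.01 (SE 0.18, adjusted p = 0.0356) for the latter, which passed the 2-fold limit narrowly at 2.01-fold. The latter probe missed the call under those 2 settings too (adjusted p = 0.0681 and 0.0727), and fell under 2-fold with normexp (0.93) and with quantile normalization (0.97), while the former kept its call in all 4. The files hold no probe sequences, so whether the probes of the closely related CXCL1, CXCL2 and CXCL3 read only their own transcripts is uncertain.

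CXCL1, the remaining gene with 2 probes, did not pass on either. Log2 values of A_23_P7144 were 2.28, 2.94 and 3.22 in parental A549, 3.49, 3.21 and 2.83 in OSK-A549-SN, and 3.83, 3.62 and 3.42 in OSK-A549-Colony. Values of A_33_P3330264 were 0.17, 0.73 and 0.90, then 1.24, 1.03 and 0.33, then 1.69, 1.49 and 1.32 in the same order. On both probes OSK-A549-Colony lay above parental A549 without overlap, and parental replicate 1 was the lowest of the 9 arrays. The log2 fold changes against parental A549 were 0.81 (SE 0.27, limma adjusted p = 0.114) and 0.90 (SE 0.22, adjusted p = 0.0621).

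CXCL3 and CXCL5, which also signal through CXCR2, had values that stopped short of a call. CXCL3 read -0.59, -0.50 and -0.64 in parental A549, -0.04, -0.32 and -0.77 in OSK-A549-SN, and 0.75, 0.12 and -0.15 in OSK-A549-Colony. CXCL5 read 4.61, 5.07 and 4.44 in parental A549, 5.32, 4.83 and 4.57 in OSK-A549-SN, and 6.09, 5.31 and 5.12 in OSK-A549-Colony. For both genes replicate 1 was the highest OSK-A549-Colony array by over 0.6 on the log2 scale, and OSK-A549-SN overlapped parental A549. For CXCL5 the gap between the highest parental and the lowest OSK-A549-Colony array was narrow, and the unscaled intensities of those arrays were 8499 and 8426. The log2 fold change of OSK-A549-Colony against parental A549 was 0.82 for CXCL3 (SE 0.24, limma adjusted p = 0.0896) and 0.80 for CXCL5 (SE 0.31, adjusted p = 0.150). Without OSK-A549-Colony replicate 1 these were 0.56 and 0.51.

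CCL20, the ligand of CCR6, varied most among replicates. Its intensity was 47.4, 60.7 and 19.3 in parental A549, 46.3, 20.4 and 20.8 in OSK-A549-SN, and 122, 41.5 and 45.6 in OSK-A549-Colony. The groups overlapped throughout, with OSK-A549-Colony replicate 1 alone above every parental array. The SD of its log2 values was 0.75 in parental A549, 0.73 in OSK-A549-SN and 0.82 in OSK-A549-Colony (n = 3). The log2 fold change of 0.68 against parental A549 (SE 0.54) had a 95% interval of -0.67 to 2.03, which holds both no change and a rise of over 2-fold. It became 0.21 when OSK-A549-Colony replicate 1 was left out, 0.26 when parental replicate 3 was, and 0.98 without parental replicate 2.

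CXCL16, a transmembrane chemokine that also serves as a scavenger receptor, ran the other way. Its intensity was 457, 550.2 and 714 in parental A549, 324, 324 and 357 in OSK-A549-SN, and 324, 294 and 369 in OSK-A549-Colony. All 6 arrays of transduced cells lay below the 3 parental arrays. The log2 difference from parental A549 was -0.79 for OSK-A549-Colony (SE 0.24, limma adjusted p = 0.0965) and -0.74 for OSK-A549-SN (SE 0.24, adjusted p = 0.161), and neither passed. Between the transduced groups the difference was -0.05, with a 95% interval of -0.33 to 0.23, which lies inside the 2-fold limit on either side.

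**Figure D1:**
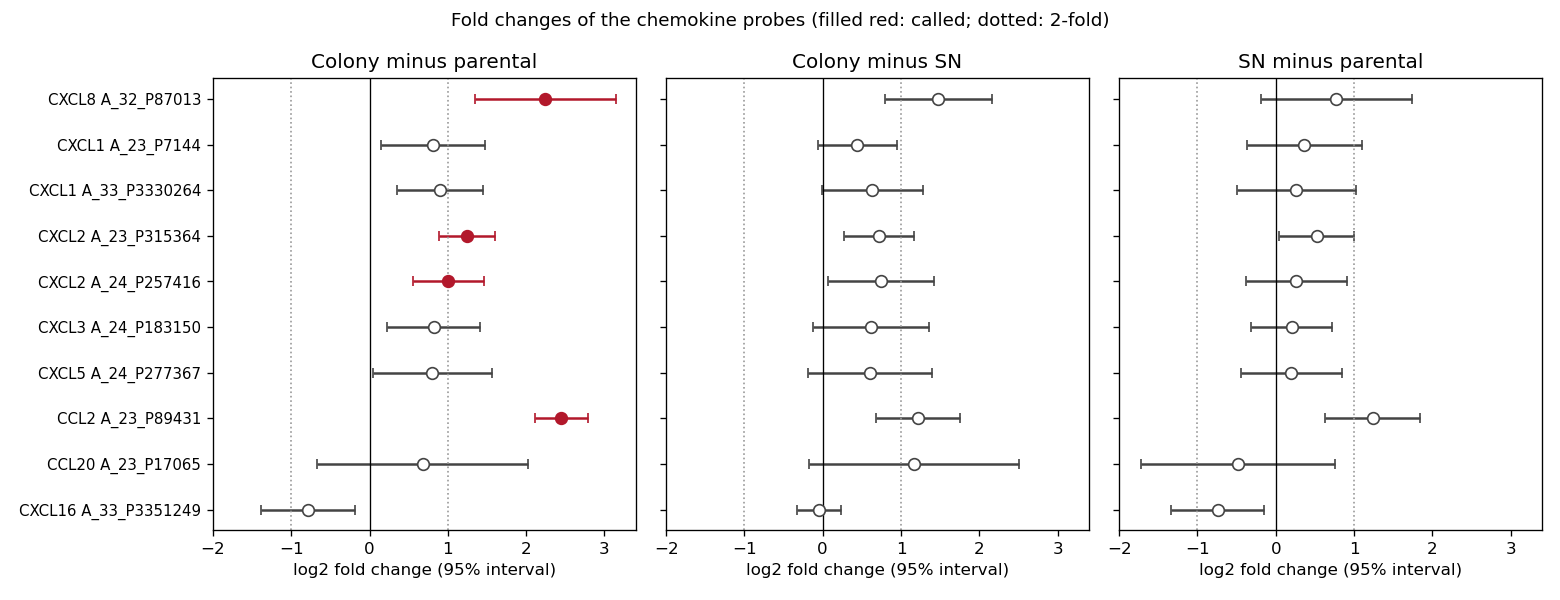
Log2 fold change with its 95% interval from limma for each of the 10 chemokine probes (rows) in the 3 comparisons (panels). Filled red points passed the call, all 4 of them in OSK-A549-Colony against parental A549, and dotted lines mark a 2-fold change.

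Without a threshold on p, 8 of the 10 probes had higher values on every OSK-A549-Colony array than on every parental array, where 20.9% of all probes did, and 1 probe, CXCL16, had lower values on every array, where 20.7% did. The median log2 fold change of the 10 probes was 0.86, against -0.03 over all probes tested. With 3 arrays against 3, an exact two-sided permutation test cannot give a p below 0.1, and each probe without overlap had that value. Over all probes 529 were called higher and 614 lower, and when arrays were scaled to their median instead the split was 684 and 475; the same 3 chemokine genes were called under both scalings.

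The calls against parental A549 depended on which arrays entered. When each array was left out in turn, CCL2 had log2 fold changes of 2.35 to 2.56 and was called in 4 of 6 fits, CXCL8 had 1.97 to 2.61 and was called in 1, and the CXCL2 probes had 0.86 to 1.32. No chemokine gene was called without parental replicate 2 or without OSK-A549-Colony replicate 2, where 1 and 0 probes were called in all. CCL2 was the 1 gene called without OSK-A549-Colony replicate 1 or replicate 3, and CCL2 and CXCL2 were called without parental replicate 3. Leaving out parental replicate 1 kept all 3 genes.

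**Figure D2:**
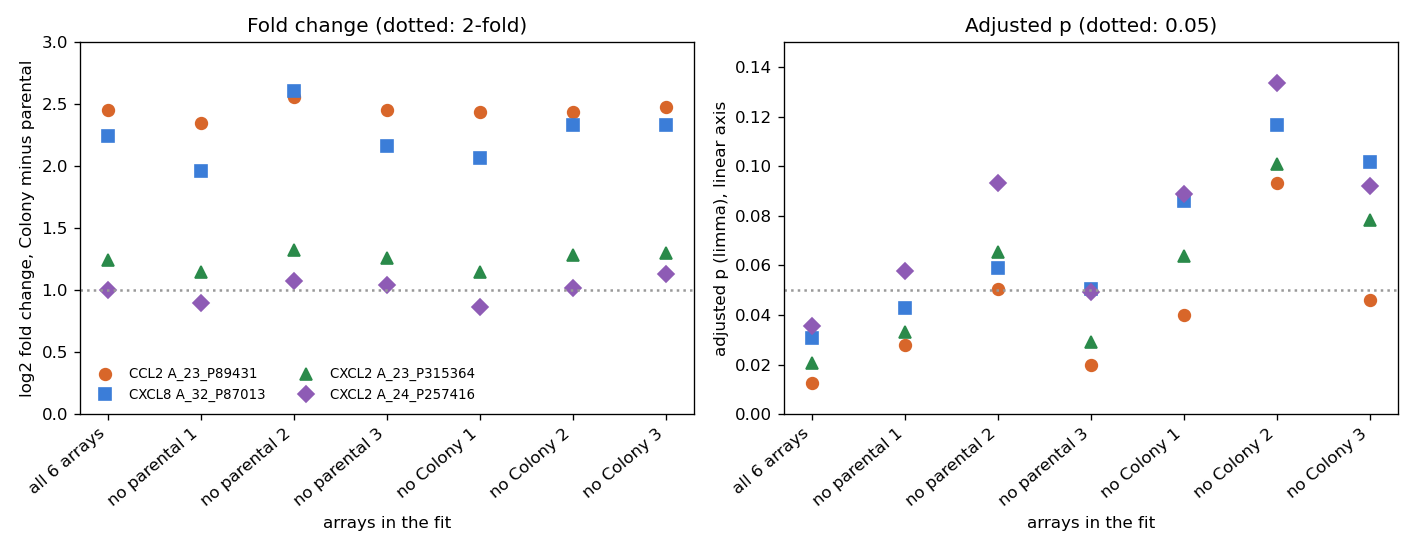
Log2 fold change (left) and limma adjusted p on a linear axis (right) of the 4 probes called for OSK-A549-Colony over parental A549, with all 6 arrays and with each array left out in turn. CCL2 stays between 2.35 and 2.56 on the log2 scale, while its adjusted p crosses the dotted line at 0.05 without parental replicate 2 and without OSK-A549-Colony replicate 2.

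Replicates also moved together across the chemokines. OSK-A549-SN replicate 1 was the highest of its group for 9 of the 10 probes and OSK-A549-SN replicate 3, the array on its own slide, the lowest for 9. In OSK-A549-Colony, replicate 1 was highest for 8 probes and replicate 3 lowest for 8. In parental A549, replicate 2 was highest for 7 and replicate 1 lowest for 7. The 10 probes are therefore not 10 separate measurements of a group difference.

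The transduced groups were separated by how readily the cells detached, so their comparison asks what sets the colony cells apart. Higher values in OSK-A549-Colony were seen for 9 of the 10 probes, with a median log2 difference of 0.68 against -0.06 over all probes. The largest differences were those of CXCL8 (1.48, SE 0.27, limma adjusted p = 0.110) and CCL2 (1.21, SE 0.22, adjusted p = 0.110), and none was called. Among all 31746 probes 0% were called higher and 0% lower, the smallest adjusted p being 0.0930, while 662 probes, CXCL8 and CCL2 among them, met an unadjusted p under 0.05 with the same fold. On 5 chemokine probes, those of CCL2, CXCL8 and CXCL2 and CXCL1 A_33_P3330264, no arrays overlapped, with OSK-A549-Colony above, as on 13.5% of all probes. None lay below without overlap, as 17.3% of all probes did.

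The study compared these groups over genes that had differed from parental A549 by its own threshold. Here the p-values were also adjusted over the 1087 probes detected on these 6 arrays among those called above between OSK-A549-Colony and parental A549, of which 7.36% were then called higher in OSK-A549-Colony and 1.75% lower. CCL2 (limma adjusted p = 0.0156) and CXCL8 (adjusted p = 0.0171) passed, and the CXCL2 probes had adjusted p-values of 0.0302 and 0.0828 with fold changes under 2. This selection used the same OSK-A549-Colony arrays, so it is not separate evidence of the direction. Within the slide that held 8 of the arrays, so without OSK-A549-SN replicate 3, the log2 difference was 1.02 for CCL2, 1.47 for CXCL8 and 0.59 for CXCL2 A_23_P315364, but CXCL2 A_24_P257416 went from 0.74 to 0.49, CXCL1 A_33_P3330264 from 0.64 to 0.37 and CXCL1 A_23_P7144 from 0.44 to 0.27. The median of the 10 probes became 0.46.

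Between OSK-A549-SN and parental A549, CCL2 had the largest log2 fold change of the chemokines, 1.24 (SE 0.25), with a limma adjusted p of 0.0708, followed by CXCL8 at 0.77 (SE 0.39, adjusted p = 0.320) and CXCL2 at 0.52 on A_23_P315364 (SE 0.20, adjusted p = 0.202). Within the shared slide these values were 1.44, 0.78 and 0.66. No chemokine probe was called, where 0.705% of 32218 probes were called higher and 0.841% lower; without adjustment, at p under 0.05 and over 2-fold, CCL2 was the 1 gene that passed. CCL2 and CXCL2 A_23_P315364 lay above parental A549 without overlap, as 16.8% of all probes did, and CXCL16 below, as 15.2% did. CXCL1, CXCL3 and CXCL5 had log2 fold changes of 0.20 to 0.36, and CCL20 had -0.49 (SE 0.51), all with intervals that included 0. Single arrays moved these small values: CXCL1 fell to 0.10 and 0.05 on its probes without parental replicate 1, CXCL3 to 0.03 and CXCL5 to -0.00815, turning sign, without OSK-A549-SN replicate 1, and CCL20 ran from -0.91 without parental replicate 3 to -0.19 without parental replicate 2. For CXCL8 the range was 0.49 to 1.13, without parental replicates 1 and 2 respectively. With the alternative processing settings included, CXCL8 went as low as 0.33 and CCL20 ran from -0.91 to -0.13. The median of the 10 was 0.26, against 0.08 over all probes, and leaving out OSK-A549-SN replicate 1 took it to 0.07, parental replicate 1 to 0.15 and OSK-A549-SN replicate 3 to 0.52. The comparisons share arrays, so the values of a gene in them are not independent.

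A limma F test across the 3 groups, which asks for any difference, passed for 3 of the 10 probes at an adjusted p under 0.05, where 11.4% of 33083 probes passed. These were CCL2 (adjusted p = 0.00589), CXCL2 A_23_P315364 (adjusted p = 0.0157) and CXCL8 (adjusted p = 0.0215). The means of 8 probes, for 6 genes, ran from parental A549 through OSK-A549-SN to OSK-A549-Colony, as did 19.9% of the 33083 probes. Along that order CCL2 and CXCL2 A_23_P315364 were the chemokine probes whose neighbouring groups did not overlap at either step, as on 2.22% of all probes.

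The 5 CXC genes that attract neutrophils lie in 1 cluster on chromosome 4, among relatives that the arrays also measured. In map order the protein-coding genes are CXCL8, CXCL6, PF4V1, CXCL1, PF4, PPBP, CXCL5, CXCL3 and CXCL2. On no array were CXCL6, PF4V1 or PPBP well above background. PF4, a platelet chemokine that sits between CXCL1 and PPBP, read 351, 241 and 228 in parental A549 and 158, 143 and 153 in OSK-A549-Colony, and its log2 difference was -0.83 (SE 0.16, limma adjusted p = 0.0390), under the 2-fold limit. CXCL1 on one side, and CXCL5 beyond PPBP on the other, had positive differences in the same arrays and were not called.

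Few of the other chemokine ligands were detected. Of 35 on the list, 32 had a probe and 11 were tested in OSK-A549-Colony against parental A549. None of these was called, and 2 had higher and 9 lower values. CXCL10, CXCL14 and CCL28 entered the test through 1 parental array each and through no OSK-A549-Colony array, and the median of the list, -0.40, is the value of CXCL14 (SE 1.25), so neither the count nor the median describes a change of the list. CCL26, an eosinophil attractant, rose in OSK-A549-SN over parental A549 by 1.69 on the log2 scale (SE 0.26, limma adjusted p = 0.0448), with intensities of 57.2, 35.9 and 34.0 in parental A549 and 164, 118 and 119 in OSK-A549-SN. In OSK-A549-Colony it lay above parental A549 without overlap and was not called (1.17, adjusted p = 0.0652). It was the 1 call among the 12 ligands tested in OSK-A549-SN, where 0.705% of all probes were called higher.

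The receptors for these ligands were mostly undetected. CCR2, the CCL2 receptor, CXCR2 and CXCR6, the CXCL16 receptor, were well above background on no array, and CXCR1 on 1. CCR6, the CCL20 receptor, was well above background on every array, with a log2 difference of -0.25 (SE 0.16) between OSK-A549-Colony and parental A549. Of 11 receptors tested there, CCR10, a receptor for CCL27 and CCL28, fell by 1.41 on the log2 scale (SE 0.19, limma adjusted p = 0.0244). It was the 1 receptor called lower, where 1.99% of all probes were. CCRL2, an atypical receptor, passed the call (adjusted p = 0.0148) but is not counted as a rise. It was well above background on 2 of 3 OSK-A549-Colony arrays and on no parental array, so it entered the test through the group where it was brighter, with intensities of 25.6, 16.0 and 17.7 against 3.21 to 3.65.

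Among the genes that process or hold chemokines, the sheddases ADAM10 and ADAM17 were well above background on every array. Of 8 genes tested MMP1, a collagenase that can cleave some chemokines, passed the call, where 1.71% of all probes were called higher. MMP1 exceeded background on 3 of 3 OSK-A549-Colony and no parental arrays, at least 2.45-fold higher (limma adjusted p = 0.0462). Of 6 inflammatory cytokines tested against parental A549, IL6 passed the call (limma adjusted p = 0.0153), beside the same 1.71% of all probes. It was well above background on 3 of 3 OSK-A549-Colony and no parental arrays and at least 2.39-fold higher. IL11 had a log2 difference of 2.34 that did not pass (adjusted p = 0.0672). Like CCRL2, MMP1 and IL6 entered the test through OSK-A549-Colony alone, so they are given by their bounds and not counted as rises of their lists. A bound compares the brighter group with the lowest signal counted as well above background on the dim arrays.

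All 15 regulators of NF-kB and of chemokine mRNA decay were tested, and 3 rose in OSK-A549-Colony over parental A549, where 1.71% of all probes did. These were NFKB2 (log2 fold change 1.50, SE 0.22, limma adjusted p = 0.0271) and RELB (1.45, SE 0.21, adjusted p = 0.0255), subunits of the noncanonical pathway, and TNFAIP3 (1.17, SE 0.17, adjusted p = 0.0271), a feedback inhibitor. None fell, 9 of the 15 had higher values, and the median was 0.24 against -0.03 over all probes. NFKBIA, the inhibitor whose message often follows NF-kB activity, had a difference of -0.33 (SE 0.14, adjusted p = 0.183). Without regard to p, 7 of the 15 lay above parental A549 without overlap, as 20.9% of all probes did, and 4 below, as 20.7% did. Among the regulators of mRNA decay, ZC3H12A, an endonuclease, had -0.77 (SE 0.18, adjusted p = 0.0529), and of the family that binds AU-rich messages ZFP36L1 had 0.71 (SE 0.30), ZFP36L2 -0.31 (SE 0.15) and ZFP36 -0.04 (SE 0.10); none passed. In OSK-A549-Colony against OSK-A549-SN no gene of any of these lists was called. IL6 had the smallest limma adjusted p of all 31746 probes there (0.0930). It was well above background on 3 of 3 OSK-A549-Colony and no OSK-A549-SN arrays, so it entered through OSK-A549-Colony alone, at least 3.12-fold higher. The study reported IL6 as the gene that differed most between these groups, and as higher in the colony cells by quantitative PCR.

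The genes whose values over the 9 arrays were nearest to those of CXCL8, by root mean square difference of centred log2 values among 20882 probes of named genes, were NIPAL2 (0.35), JUN (0.38) and FOSL1 (0.41). For CCL2 the nearest were FOSL1 (0.23) and LY96 (0.28). JUN and FOSL1 encode parts of AP-1, and LY96 a partner of the receptor TLR4. NIPAL2 was well above background on 4 of the 9 arrays and LY96 on 6, none of them parental, so their place in this order rests in part on values not well above background. The SD of CXCL8 and of CCL2 over the 9 arrays was 1.02 for each.

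The A549 label was checked against markers. Of 13 lung epithelial and A549 markers, 11 were well above background on all arrays of every group, and NKX2-1 on none. Between OSK-A549-Colony and parental A549, 5 of the 12 tested had higher and 7 lower values, with a median log2 difference of -0.15, and none was called. SFTPB, 1 of the 5, entered through 1 OSK-A549-Colony array and no parental array, so this count and median rest in part on values not well above background. Without overlap, KRT19 (1.18) and AKR1B10 (0.14) lay higher, as 20.9% of all probes did. CDH1 (-0.996), AKR1C1 (-0.39), KRT8 (-0.36) and KRT18 (-0.24) lay lower without overlap, as 20.7% did. The summed level of 5 mesenchymal markers, nearly all of it VIM, was 153 to 212 times the array's 75th percentile in parental A549, 221 to 237 in OSK-A549-Colony and 229 to 251 in OSK-A549-SN. Of these, VIM (0.41), CDH2 (0.74) and ZEB1 (1.09) lay above parental A549 on every OSK-A549-Colony array, as 20.9% of all probes did. SNAI2 (1.03, well above background on 1 of these 6 arrays) and FN1 (-0.31) overlapped, and none of the 5 was called. In OSK-A549-SN, FN1 lay below parental A549 without overlap (-1.33), as 15.2% of all probes did. VIM (0.49), CDH2 (0.69) and ZEB1 (0.72) lay above, as 16.8% did, again with no call. Of 7 fibroblast markers, 6 were well above background on no array. Of 7 leukocyte markers with a probe, 5 were well above background on all arrays, and the summed level of the list was 3.95 to 9.47 times the array's 75th percentile in parental A549, 4.76 to 5.40 in OSK-A549-Colony and 5.97 to 6.92 in OSK-A549-SN. Between OSK-A549-Colony and parental A549 the 6 tested had a median of -0.40, with 2 higher and 4 lower. CD3E, at -1.04, entered through 1 parental array and no OSK-A549-Colony array, so neither this count nor the median describes a change of the list. CD68, a lysosomal protein, was the 1 called, at 1.04 on the log2 scale (limma adjusted p = 0.0272), where 1.71% of all probes were called higher. ITGAM had 0.81 (adjusted p = 0.0300), whereas PTPRC, the pan-leukocyte marker, had -0.57, CD14 -0.74 and TYROBP -0.22. None but CD68 passed. The part of these transcripts in the chemokine values was not tested.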

How the data were processed

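Starting from total RNA, with Cy3 as the label, the authors used Agilent human 8x60K arrays. The deposited intensity of each spot was written by Feature Extraction 11.5.1.1 with background already subtracted. The authors also deposited a log2 table, whose values matched the log2 intensities after 1 shift per array for 100% of single-spot probes. It served as an alternative.

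Intensities were put on the log2 scale and the 75th percentile of each array subtracted. Of 62976 spots per array, 4259 control spots and those flagged as outliers were left out, and spots of a probe were averaged. Detection of a probe required that a share of 0.5 or more of its spots be positive, significant and well above background. limma 3.58.1 in R 4.3.3 (lmFit, eBayes) compared each pair of groups on its 6 arrays over probes detected on at least 1, and the F test used all 9. The procedure was tested on simulated data. Genes were named by RefSeq accession, and 30275 of 32065 such probes matched. Lists used the brightest probe of a gene. Outside the 9 chemokines, the genes named were list genes called or not overlapping (at most 6 per list and comparison) and the nearest 3 genes to CXCL8 and to CCL2, of which 1 is not reported here. Receptors of the members, ADAM10, ADAM17, NFKBIA, mRNA decay regulators, markers, IL11 and cluster neighbours were partly chosen after their values were seen. The members and lists were chosen with earlier results of these data known. Equal-numbered OSK-A549-Colony and OSK-A549-SN arrays share a passage label, but no label says that they share a culture. Array number limits the precision.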

Additional observations from a re-analysis of the deposited data

How the results depend on the processing

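The 3 chemokine genes called between OSK-A549-Colony and parental A549 numbered 2 to 3 under each alternative of background correction, scaling, detection filter, variance estimate and the deposited log2 table. With the replicate number as a block 0 were called, as were 0 of all probes (1143 without the block), and leaving out single arrays gave 0 to 3. Between the transduced groups the count of 0 became 1 with normexp and with detection required on all arrays of a group (CCL2), 2 with an intensity trend, 2 with unadjusted p and 2 when adjusted over the probes called against parental A549; it was 0 to 0 without single arrays. For OSK-A549-SN against parental A549 the count of 0 became 1 (CCL2) with normexp, the stricter filter, all 9 arrays in 1 fit, an intensity trend and unadjusted p, and was 0 to 0 without single arrays. The F test count of 3 became 5 with normexp, 5 with the stricter filter and 6 with the trend, and was 1 to 4 without single arrays. Equal replicate numbers were not taken as pairs, since the labels do not say what they mark and in none of the comparisons did every same-numbered pair correlate above 0.1. Between the transduced groups each array did correlate best with its own number (0.24, 0.07 and 0.14). The study's methods also describe both cell types as collected from the same dish, and equal numbers of these groups share a passage label. Pairing by number is therefore possible there, although no label states it. The standard errors and intervals given between the transduced groups are unpaired and leave such pairing out. By number, 9 of the 10 probes were higher in OSK-A549-Colony for all 3, CCL20 by 1.29, 0.92 and 1.30, and the replicate block still called 0. Without single arrays the log2 difference of CXCL16 between the transduced groups ran from -0.14 to 0.00677, turning sign without OSK-A549-Colony replicate 2, and that of CXCL5 in OSK-A549-SN against parental A549 from -0.00815 to 0.38, turning sign without OSK-A549-SN replicate 1. Of all probes, 1143 called against parental A549 became 333 with normexp, 583 without a filter, 336 without moderation, 2038 at unadjusted p and 0 to 1362 without single arrays. The 498 called for OSK-A549-SN became 232, 215 and 5 in the same order, 187 with slide as a block, 980 with the stricter filter, 1054 with all 9 arrays, 918 with the trend, 1879 at unadjusted p, 0 with the replicate block and 0 to 190 without single arrays. The 0 between the transduced groups became 32 with normexp, 139 with the stricter filter, 2 with all 9 arrays 168 with the trend and 662 at unadjusted p. The cause was not tested. A slide block was not run for OSK-A549-Colony against parental A549, which lie on 1 slide.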
